A study of Homo sapiens with 6 samples.

Results

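ERBB2, the gene of the receptor HER2, lies on chromosome 17q12 among genes that are gained together with it in HER2-positive breast cancer. Its neighbours were examined here in BT474, an ER-positive and HER2-positive human breast cancer cell line in which this stretch is known to be amplified. The members were all array probes that the array files map to a fixed window of chromosome 17 around ERBB2 (hg19), from the first member probe at 37004149 to the last at 38438199, without ERBB2 itself and without probes named as long noncoding or antisense transcripts. They were 67 probes of 54 gene names, out of 58201 non-control probes of 43317 names on the array, and 36 of the 54 names were matched to a current RefSeq symbol. ERBB2, with 2 probes, served as the point of reference.

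The study asked how BT474 cells respond to a gain of NR2F1-AS1, a long noncoding RNA transcribed opposite to the nuclear receptor gene NR2F1. Control cells were transfected with empty pcDNA3.1, BT474-Var1 cells with pcDNA3.1 that carried NR2F1-AS1 variant 1, the long form, and BT474-Var4 cells with pcDNA3.1 that carried variant 4, the short form. Per the study's methods the backbones differed, pcDNA3.1/Hygro(+) for variant 1 and pcDNA3.1-P2A-eGFP for variant 4. Which of these 2 empty plasmids the Control cells of the arrays carried is not stated in the sources used here. All 3 groups were stably transfected, passed through antibiotic selection and were grown in RPMI-1640 with serum, and neither the labels nor the methods say whether a line came from 1 clone. The study reports that cells with either variant lost viability until few were left, and that colonies later grew from these. Outgrowth of surviving cells and the variant itself therefore cannot be told apart in the comparisons with Control. Between the lines, the variant, the backbone and the separate outgrowth of each line cannot be told apart either. Each group had 2 one-color arrays, A and B, which are not labeled as separate cultures, so the p-values measure only the spread between these samples, which may be technical. An array of a transfected line shows RNA amount and not copy number.

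Amplification of 17q12 places many copies of a short chromosome segment in 1 cell, and the genes of the segment then tend to be highly transcribed together. The smallest stretch shared by amplified tumors holds ERBB2 with STARD3, TCAP, PNMT, PGAP3, MIEN1 and GRB7. On one side lie CDK12 and MED1, which serve transcription, and on the other IKZF3, the gasdermin genes, PSMD3, MED24, THRA and NR1D1. Since a gain of copies takes in neighbouring genes, their order along the chromosome is kept in view here.

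The probes are 60 bases long, and the first 30 bases of those on which the results turn are printed 5′ to 3′, as deposited, with the mapped position of the whole probe (hg19). The first 4 belong to the genes with a RefSeq symbol whose difference between the lines held whichever single array was left out. The last 4 belong to PLXDC1 and FBXL20, whose probes gave different changes.
TCAP, chr17:37822740-37822799, plus strand: aggcaaggatggtggggcccccagcaccct
GSDMB, chr17:38060850-38060909, minus strand: caaaaccagcctggatttcatacatggact
RDM1P5, chr17:37237527-37237586, plus strand: tctgaggctctgtgagtctcatgcgaagga
PNMT, chr17:37826574-37826633, plus strand: caccttcagacaggcgtagatgatgtcaag
PLXDC1, brighter probe, chr17:37223416-37223475, minus strand: cccgcataattttaagacggttctttagga
PLXDC1, dimmer probe, chr17:37219970-37220029, minus strand: gccaatctctgtctccaaaaacctacctga
FBXL20, brighter probe, chr17:37409051-37409110, minus strand: gggggattatttaaaataaataaaatccga
FBXL20, dimmer probe, chr17:37417011-37417070, minus strand: acactcaaattatcactgtctgtagcacac

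Levels are log2 intensities less the array's 75th percentile, so that 0 is the 75th percentile of an array, and levels of different probes cannot be set against each other. The 6 arrays shared 1 slide. Those of BT474-Var1 occupied its second row and the rest its first, so row and group cannot be told apart for that line. The arrays held 47.6% to 57.5% of their probes well above background and no saturated spot. The labels matched the transfections: the probe of NR2F1-AS1 with the highest level was at 3.01 and 3.02 in BT474-Var4 against -5.76 and -4.16 in Control, and another was at -0.42 and -0.51 in BT474-Var1 against -6.37 and -6.62. Of the luminal markers, 8 of 8 were above background on all 6 arrays. Of the markers of other cells, COL1A2, COL3A1, LUM and KDR were above background on 0 of 6 arrays, while 2 of 6 fibroblast, 2 of 4 immune and 2 of 4 endothelial markers with a probe were above it on all 6, and their part in the results below was not tested.

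Most of the window was detected, and its median change lay close to that of the whole array. Of its 67 probes, 51 were well above background on all 6 arrays, 12 on some and 4 on none, and 57 probes of 46 genes entered the test, which required both arrays of at least 1 group to be above background. That was 85.1% of the probes, against 54.7% of all non-control probes on the array, 84.1% in the window of the same length before it on the chromosome and 58.5% in the window after it. Against Control, the median log2 change of the tested members was 0.05 in BT474-Var1 and -0.06 in BT474-Var4, and the corresponding medians over all 31858 tested probes were -0.04 and -0.08. Expressed per array, the members' median difference from the Control mean was 0.04 and 0.08 in the BT474-Var1 arrays and -0.06 and -0.08 in the BT474-Var4 arrays. Between the lines, BT474-Var4 minus BT474-Var1, the median was -0.12, and -0.03 over all tested probes. The members' medians thus lay within 0.1 of those of the array in every comparison, and under quantile normalization the BT474-Var4 median turned to 0.04.

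The neighbouring windows gave medians of similar size. In the window before, 37 tested probes had medians of 0.03 in BT474-Var1 and -0.09 in BT474-Var4, and in the window after, 62 tested probes had medians of 0.01 and -0.09. The interquartile range of the changes ran from -0.16 to 0.25 among the members in BT474-Var1 and from -0.24 to 0.11 in BT474-Var4. Over all tested probes it ran from -0.27 to 0.23 and from -0.28 to 0.13.

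**Figure D1:**
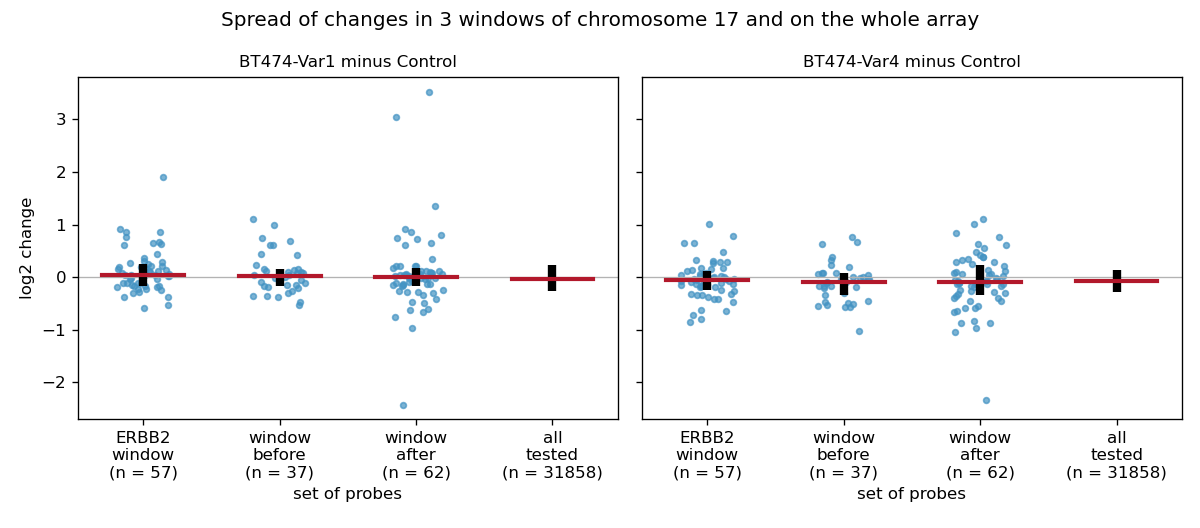
Log2 change against Control (vertical axis) of each tested probe in the ERBB2 window and in the windows before and after it on chromosome 17, with BT474-Var1 on the left and BT474-Var4 on the right; red lines are medians, black bars the interquartile range, and the whole array is drawn by median and bar alone. The medians of the 57 members, 0.05 and -0.06, sit close to the zero line, as do those of the other sets.

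Single genes did change. A probe was counted as changed at an adjusted p under 0.05 in limma, with the adjustment over all tested probes. In BT474-Var1, 9 of 57 member probes rose and 7 fell against Control, where 14.1% of all tested probes rose and 20.3% fell. In BT474-Var4, 6 rose and 12 fell, where 9.87% of all tested probes rose and 14.3% fell. In BT474-Var4 minus BT474-Var1, 4 were higher and 15 lower, where 20.4% of all tested probes were higher and 20.8% lower. Together 28.1%, 31.6% and 33.3% of the member probes passed, against 34.4%, 24.2% and 41.2% of the array. Past the test and changed 2-fold or more were 1 member probe in BT474-Var1 and 1 in BT474-Var4, both higher than Control, against 2.78% and 1.6% of the array, and 0 were lower, against 1.16% and 1.57%. In BT474-Var4 minus BT474-Var1, 5 were lower, against 4.6% of the array, and 0 were higher, against 2.27%. At an unadjusted p under 0.05 in limma, with all arrays, 26 of 57 member probes and 12781 of all 31858 passed in BT474-Var4. An unadjusted count in another fit is given without the share of all probes in that fit, and shows no excess of the members by itself. The counts of changed probes depended on single arrays, as did those of the whole array. In BT474-Var1, 3 member probes were changed without Control A and 4 without Control B, where 6.43% and 13.5% of all tested probes were, and 6 and 5 without its own array A or B, where 16.3% and 19.3% were. In BT474-Var4, 1 was changed without Control A and 0 without Control B, where 1.9% and 4.51% of all tested probes were, with 21 of 58 at an unadjusted p under 0.05 in limma beside that 0. It was 4 and 3 without its own array A or B, where 10.1% and 6.89% were, and 8 without BT474-Var1 A, where 12.7% were. Between the lines it was 14 and 16 without Control A and B, 11 and 9 without BT474-Var4 A and B, and 12 without either array of BT474-Var1, where 23.5% to 31.6% of all tested probes were changed.

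**Figure D2:**
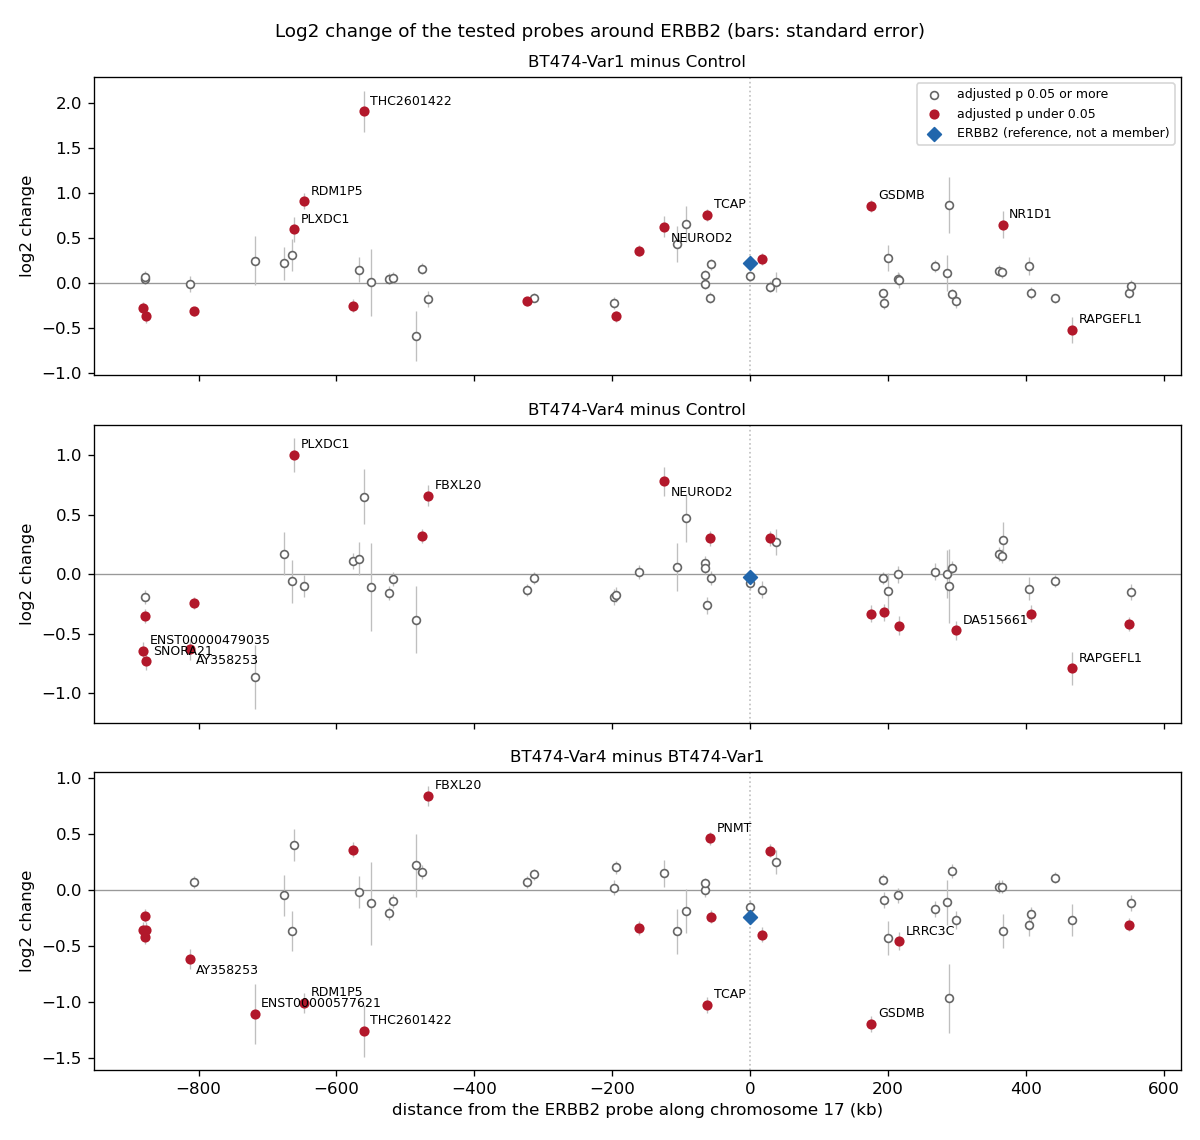
Log2 change (vertical axis, bars are standard errors) of the 57 tested member probes by distance from the ERBB2 probe in kb (horizontal axis), in the 3 comparisons; filled points passed an adjusted p of 0.05 and the diamond is ERBB2. Changed probes are scattered over the stretch with probes that did not pass between them, and in the lowest panel TCAP at -1.03 and GSDMB at -1.20 stand below their neighbours.

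At the level of genes, taken by the tested probe with the highest mean, 45 changes passed the test over the 3 comparisons: 9 rose and 6 fell in BT474-Var1, 5 rose and 9 fell in BT474-Var4, and 3 were higher and 13 lower in BT474-Var4 than in BT474-Var1. In a fit with 1 probe per gene, 36.1%, 26.4% and 43.1% of all genes passed in these comparisons. Of these 45, 8 stayed past the threshold when each of the 6 arrays was left out in turn. They were the changes of TCAP, GSDMB and RDM1P5 in BT474-Var1 and between the lines, and those of PNMT and AY358253 between the lines. The other 37 were lost without at least 1 array. All 45 kept their direction in each of those 6 fits. That was nearly fixed beforehand, since they were picked for changes large against their spread. Leaving out an array of the group not compared leaves the log2 change as it was. How many changes of the whole array stayed in all 6 fits is not given, so the number that stayed here cannot be called high or low.

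ERBB2 itself was slightly higher in BT474-Var1. Its brighter probe was at 8.63 and 8.59 in Control, 8.83 and 8.83 in BT474-Var1, and 8.60 and 8.58 in BT474-Var4. Both BT474-Var1 arrays lay above all others, and the BT474-Var4 arrays lay at the level of Control. The change was 0.22 ± 0.05 (SE, n = 2 per group, limma adjusted p = 0.0295) in BT474-Var1, -0.02 ± 0.05 (adjusted p = 0.843) in BT474-Var4, and -0.24 ± 0.05 (adjusted p = 0.0214) between the lines. The dimmer ERBB2 probe gave 0.50 ± 0.16 (adjusted p = 0.0714) in BT474-Var1. No fit of ERBB2 without an array or under another normalization is given, so its changes are not shown to be firmer than those of its neighbours.

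Among the 6 genes next to ERBB2, STARD3 and MIEN1 passed no test. STARD3, which codes for a cholesterol transport protein of late endosomes, was at 8.13 and 8.12 in Control, 8.16 and 8.08 in BT474-Var1 and 8.18 and 8.16 in BT474-Var4. MIEN1, known for a role in cell migration, was at 8.45 and 8.53, 8.53 and 8.61, and 8.42 and 8.42 in the same order. The 95% intervals of their log2 changes against Control ran from -0.15 to 0.13 and from -0.10 to 0.19 for STARD3 and from -0.08 to 0.24 and from -0.23 to 0.08 for MIEN1, in BT474-Var1 and BT474-Var4, respectively.

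TCAP moved most in the core. It codes for telethonin, a protein of the muscle sarcomere whose gene is carried along with ERBB2. Its level was 3.20 and 3.26 in Control, 4.03 and 3.96 in BT474-Var1, and 2.91 and 3.03 in BT474-Var4. The 3 groups did not overlap, with BT474-Var1 highest and BT474-Var4 lowest. The change was 0.76 ± 0.07 in BT474-Var1 (1.70-fold, adjusted p = 0.00503), -0.26 ± 0.07 in BT474-Var4 (adjusted p = 0.0592), and -1.03 ± 0.07 between the lines (2.04-fold lower, adjusted p = 0.00197).

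GRB7, an adaptor protein that binds HER2, followed the same order with smaller steps. It was at 4.35 and 4.34 in Control, 4.55 and 4.69 in BT474-Var1, and 4.20 and 4.25 in BT474-Var4. It rose by 0.27 ± 0.07 (adjusted p = 0.0400) in BT474-Var1, was at -0.13 ± 0.07 (adjusted p = 0.243) in BT474-Var4, and differed between the lines, at -0.40 ± 0.07 (adjusted p = 0.0133). The rise in BT474-Var1 was lost whichever single array was left out, with adjusted p between 0.0577 and 0.155, and the difference between the lines was lost without BT474-Var4 A or B, with adjusted p up to 0.0603.

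PGAP3, an enzyme that remodels the lipid of GPI anchors, was at 6.12 and 6.11 in Control, 6.29 and 6.36 in BT474-Var1, and 6.13 and 6.03 in BT474-Var4. Its change in BT474-Var1 was 0.21 ± 0.06 (adjusted p = 0.0632), and BT474-Var4 was lower than BT474-Var1, at -0.24 ± 0.06 (adjusted p = 0.0391). Leaving out any 1 array lost that difference, with adjusted p between 0.0607 and 0.144.

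PNMT, the enzyme that makes adrenaline from noradrenaline, went the other way. It was at 4.17 and 4.21 in Control, 3.97 and 4.08 in BT474-Var1, and 4.47 and 4.50 in BT474-Var4, so that the BT474-Var4 arrays were highest and the BT474-Var1 arrays lowest. It rose by 0.30 ± 0.06 (adjusted p = 0.0328) in BT474-Var4, was at -0.16 ± 0.06 (adjusted p = 0.112) in BT474-Var1, and exceeded BT474-Var1 in BT474-Var4 by 0.46 ± 0.06 (adjusted p = 0.00735). The rise against Control was lost whichever single array was left out, with adjusted p between 0.0530 and 0.159. TCAP and PGAP3, on either side of PNMT, both lay lower in BT474-Var4 than in BT474-Var1. In the core, then, 2 of 6 genes rose and 0 fell in BT474-Var1, 1 rose and 0 fell in BT474-Var4, and between the lines 1 was higher and 3 were lower, beside 14.1% and 20.3%, 9.87% and 14.3%, and 20.4% and 20.8% of all tested probes.

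**Figure D3:**
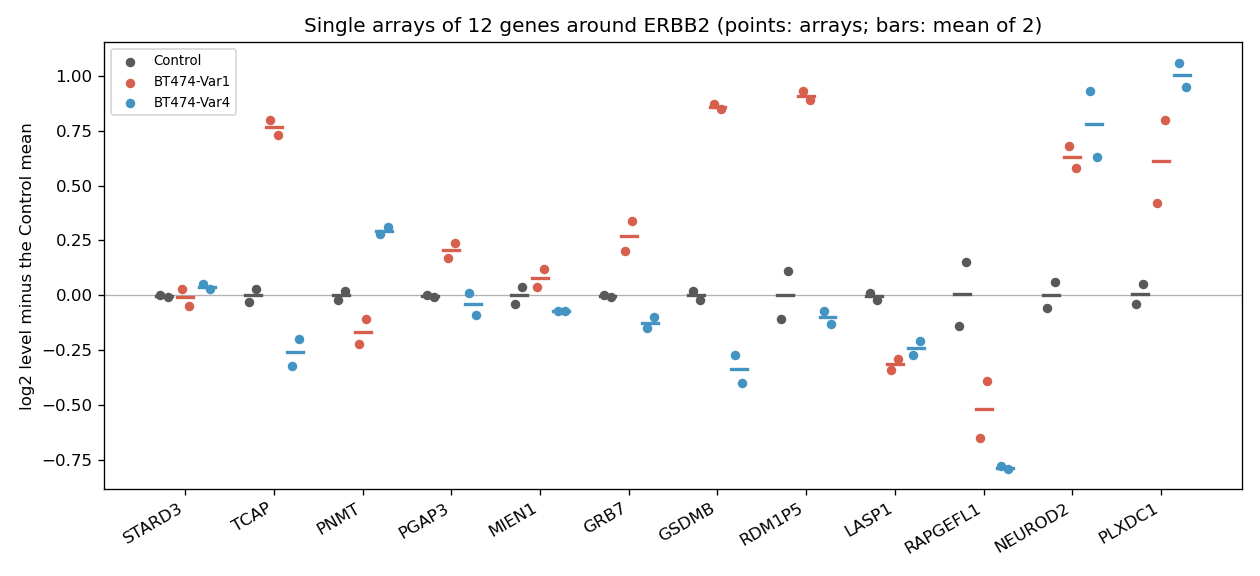
Level on each array less the Control mean of the same probe (vertical axis, log2) for the 6 genes next to ERBB2 and 6 other members (horizontal axis); points are arrays, colored by group, and bars are means of 2 arrays. TCAP, GSDMB and GRB7 are highest in BT474-Var1 and lowest in BT474-Var4, PNMT shows the opposite order, and NEUROD2 and LASP1 lie on the same side of Control in both lines.

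GSDMB, outside the core on the far side of IKZF3, showed the largest difference between the lines among the members well above background on all 6 arrays. It codes for gasdermin B, a pore-forming protein cleaved during inflammatory cell death. Its level was 4.79 and 4.75 in Control, 5.64 and 5.62 in BT474-Var1, and 4.50 and 4.37 in BT474-Var4, with no overlap between groups. It rose by 0.86 ± 0.07 (1.82-fold, adjusted p = 0.00413) in BT474-Var1, fell by 0.33 ± 0.07 (adjusted p = 0.0316) in BT474-Var4, and was 1.20 lower in BT474-Var4 than in BT474-Var1 (log2 -1.20 ± 0.07, 2.29-fold, adjusted p = 0.00148). The fall in BT474-Var4 was lost whichever single array was left out, with adjusted p between 0.0525 and 0.154. For TCAP, GSDMB and RDM1P5, the rise in BT474-Var1 and the difference between the lines passed under all 15 alternative settings.

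Of the other genes of the gasdermin cluster, ORMDL3 and LRRC3C were tested. ORMDL3, a regulator of sphingolipid synthesis, was at 7.43 and 7.38 in Control, 7.29 and 7.29 in BT474-Var1, and 7.39 and 7.37 in BT474-Var4, and passed no test on this probe. Its dimmer probe fell in BT474-Var4, at -0.32 ± 0.07 (adjusted p = 0.0365). LRRC3C, a dim leucine-rich repeat gene, was at -2.96 and -3.01 in Control, -3.03 and -2.87 in BT474-Var1, and -3.35 and -3.48 in BT474-Var4, where it fell by 0.43 ± 0.08 (adjusted p = 0.0297). This fall was lost whichever array of Control or BT474-Var4 was left out. LRRC3C was also lower in BT474-Var4 than in BT474-Var1 (log2 -0.46 ± 0.08, adjusted p = 0.0153). That difference was lost under quantile normalization and without BT474-Var4 B or BT474-Var1 B. GSDMA and ZPBP2 were not tested, since neither was above background on both arrays of any group.

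Of the genes of transcription and RNA, 7 of 7 tested, 1 rose and 1 fell in BT474-Var1, where 14.1% and 20.3% of all tested probes did, and 2 rose and 1 fell in BT474-Var4, where 9.87% and 14.3% did. CDK12, a kinase of elongating RNA polymerase II, was at 3.21 and 3.26 in Control, 2.91 and 2.81 in BT474-Var1, and 3.06 and 3.07 in BT474-Var4. It fell by 0.37 ± 0.06 (adjusted p = 0.0139) in BT474-Var1, and its dimmer probe was at -0.22 ± 0.07 (adjusted p = 0.0828). The fall on the brighter probe was lost without Control A, Control B or BT474-Var1 B, with adjusted p up to 0.0777. The Mediator subunits MED1 and MED24 and the exon junction protein CASC3 passed no test on their main probes, with changes between -0.17 and 0.05 against Control. The dimmer MED1 probe fell in BT474-Var1, at -0.20 ± 0.05 (adjusted p = 0.0466).

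IKZF3, a lymphoid zinc finger factor that lies next to GRB7, was at 6.45 and 6.33 in Control, 6.36 and 6.33 in BT474-Var1, and 6.67 and 6.72 in BT474-Var4. It rose by 0.30 ± 0.06 (adjusted p = 0.0364) in BT474-Var4 and was at -0.04 ± 0.06 (adjusted p = 0.635) in BT474-Var1, with a difference between the lines of 0.35 ± 0.06 (adjusted p = 0.0165). The dimmer probe gave 0.27 ± 0.11 (adjusted p = 0.139) in BT474-Var4. The rise was lost whichever single array was left out, and the difference between the lines was lost whichever array of either line was left out. MSL1, a subunit of a histone acetyltransferase complex, fell by 0.33 ± 0.07 (adjusted p = 0.0332) in BT474-Var4, and its other probe was at -0.12 ± 0.10 (adjusted p = 0.397). That fall was lost whichever array of Control or BT474-Var4 was left out.

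NEUROD2, a neuronal transcription factor, was dim but rose in both lines. It was at -3.41 and -3.29 in Control, -2.67 and -2.77 in BT474-Var1, and -2.42 and -2.72 in BT474-Var4. The 4 arrays with NR2F1-AS1 all lay above both Control arrays. BT474-Var1 showed a rise of 0.63 ± 0.12 (adjusted p = 0.0214) and BT474-Var4 one of 0.78 ± 0.12 (adjusted p = 0.0184), and the lines did not pass a test against each other (0.15, 95% interval -0.18 to 0.47, adjusted p = 0.377). The 2 comparisons share the Control arrays, and without Control A or Control B neither rise passed. The BT474-Var1 rise was also lost without either of its own arrays, and the BT474-Var4 rise without BT474-Var1 A. With normexp background correction the rises were 0.24 and 0.17.

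LASP1, an actin-binding protein of focal adhesions, fell in both lines. It was at 7.64 and 7.61 in Control, 7.29 and 7.34 in BT474-Var1, and 7.36 and 7.42 in BT474-Var4. The falls were 0.31 ± 0.05 (log2 -0.31, adjusted p = 0.0161) and 0.24 ± 0.05 (log2 -0.24, adjusted p = 0.0404). Under quantile normalization neither fall of LASP1 passed, and the BT474-Var1 change was -0.16 (limma adjusted p = 0.101). RAPGEFL1, a guanine nucleotide exchange factor-like gene, also fell in both, from -0.77 and -0.48 in Control to -1.28 and -1.02 in BT474-Var1 and -1.41 and -1.42 in BT474-Var4, with log2 changes of -0.52 ± 0.14 (adjusted p = 0.0441) and -0.79 ± 0.14 (adjusted p = 0.0224). All 4 variant arrays lay below both Control arrays for each of the 2 genes. The BT474-Var1 fall of RAPGEFL1 and the BT474-Var4 fall of LASP1 were lost whichever single array was left out. The BT474-Var1 fall of LASP1 was lost whichever array of Control or BT474-Var1 was left out. The BT474-Var4 fall of RAPGEFL1 was lost whichever array of Control or BT474-Var4 was left out.

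Of the other genes of the cytoskeleton, adhesion and channels, CACNB1, STAC2 and WIPF2 passed no test on their main probes. The dimmer WIPF2 probe fell in BT474-Var4, from 0.88 and 0.90 in Control to 0.44 and 0.50, a change of -0.42 ± 0.06 (adjusted p = 0.0133), where the brighter probe was at -0.15 ± 0.07 (adjusted p = 0.178).

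PLXDC1, a membrane protein first described in tumor endothelium, was the only member to rise 2-fold in BT474-Var4. Its brighter probe was at -3.70 and -3.61 in Control, -3.24 and -2.86 in BT474-Var1, and -2.60 and -2.71 in BT474-Var4. BT474-Var1 showed a rise of 0.60 ± 0.14 (adjusted p = 0.0342) and BT474-Var4 one of 1.00 ± 0.14 (adjusted p = 0.0150). The dimmer probe, printed above, gave 0.31 ± 0.18 (adjusted p = 0.256) for BT474-Var1 and, for BT474-Var4, -0.06 ± 0.18 (adjusted p = 0.821), and it was above background on 2 Control arrays, 1 BT474-Var1 array and 0 BT474-Var4 arrays. The remaining PLXDC1 probe was not tested. All PLXDC1 levels lie near the limit of detection. Of the fits without an array, the BT474-Var1 rise stayed only in that without BT474-Var1 A. The BT474-Var4 rise was lost whichever array of Control or BT474-Var4 was left out. With normexp background correction the rises in BT474-Var1 and BT474-Var4 were 0.15 (adjusted p = 0.0263) and 0.13 (adjusted p = 0.0623).

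FBXL20, the substrate-binding part of a ubiquitin ligase, rose in BT474-Var4 on both probes, but by different amounts. The brighter probe went from 6.01 and 5.93 in Control to 6.25 and 6.32, a rise of 0.32 ± 0.06 (adjusted p = 0.0248). The dimmer probe went from 3.42 and 3.55 to 4.06 and 4.22, a rise of 0.66 ± 0.09 (adjusted p = 0.0127). In BT474-Var1 the brighter probe was at 6.13 and 6.13 and the dimmer one at 3.34 and 3.27, on opposite sides of Control, with adjusted p of 0.0921 and 0.176. Only the dimmer probe differed between the lines, by 0.84 ± 0.09 (adjusted p = 0.00401). Leaving out any 1 array lost the rise of the brighter probe, with adjusted p between 0.0598 and 0.119.

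Ribosomal and proteasome genes at the 2 sides of ERBB2 were near Control. RPL19 was at 10.55 and 10.58 in Control, 10.55 and 10.67 in BT474-Var1, and 10.42 and 10.38 in BT474-Var4, and PSMD3, a subunit of the proteasome cap, was at 6.70 and 6.78, 6.94 and 6.91, and 6.70 and 6.82; neither passed a test. RPL23 was at 10.80 and 10.80 in Control, 10.90 and 10.80 in BT474-Var1, and 10.65 and 10.58 in BT474-Var4, and it was lower in BT474-Var4 than in BT474-Var1 (log2 -0.23 ± 0.06, adjusted p = 0.0397). Under quantile normalization that difference was 0.02 (adjusted p = 0.795), and it was lost whichever single array was left out, with adjusted p up to 0.149. A second RPL23 probe fell in BT474-Var4, at -0.35 ± 0.06 (adjusted p = 0.0190), and gave -0.42 ± 0.06 between the lines (adjusted p = 0.00726).

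The probe of SNORA21, a small nucleolar RNA that guides pseudouridine formation in ribosomal RNA and lies within RPL23, fell in both lines. This probe is on the same strand as those of RPL23, and whether it reads the small RNA or RNA of RPL23 was not tested. It was at 5.81 and 5.84 in Control, 5.49 and 5.42 in BT474-Var1, and 5.16 and 5.03 in BT474-Var4. The groups did not overlap and stepped down in that order, with log2 changes of -0.37 ± 0.07 (adjusted p = 0.0173), -0.73 ± 0.07 (adjusted p = 0.00649) and, between the lines, -0.36 ± 0.07 (adjusted p = 0.0165). The neighbouring transcript ENST00000479035, about which the files give no gene, was at 2.59 and 2.62, 2.34 and 2.31, and 2.03 and 1.89, the same order, with changes of -0.28 ± 0.07 (adjusted p = 0.0349) and -0.64 ± 0.07 (adjusted p = 0.00819) against Control and -0.36 ± 0.07 (adjusted p = 0.0161) between the lines. Under quantile normalization the BT474-Var1 changes of SNORA21 and ENST00000479035 were -0.23 and -0.18, and neither passed (limma adjusted p = 0.0537 and 0.103). Without Control A or Control B the BT474-Var4 falls of both were lost, with adjusted p up to 0.0603 and 0.0669, and the BT474-Var1 falls of both stayed in 2 of 6 fits without an array.

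The nuclear receptors THRA and NR1D1 overlap at their ends on opposite strands. THRA, a thyroid hormone receptor, passed no test on either probe. NR1D1, the circadian repressor REV-ERB alpha, was at -2.55 and -2.87 in Control, -2.01 and -2.11 in BT474-Var1, and -2.55 and -2.30 in BT474-Var4. It rose by 0.65 ± 0.15 (adjusted p = 0.0302) in BT474-Var1, and its change in BT474-Var4 was 0.29 ± 0.15 (adjusted p = 0.218). The rise was lost whichever array of Control or BT474-Var1 was left out, and it was 0.25 with normexp background correction.

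Of the signalling genes, PPP1R1B, which codes for the dopamine-regulated phosphatase inhibitor DARPP-32, was at -3.78 and -3.43 in Control, -3.18 and -2.71 in BT474-Var1, and -3.19 and -3.07 in BT474-Var4. All 4 variant arrays lay above both Control arrays, but neither change passed, at 0.66 ± 0.20 (adjusted p = 0.0686) and 0.47 ± 0.20 (adjusted p = 0.164). CSF3, the granulocyte colony-stimulating factor, was above background on both BT474-Var1 arrays and on 1 array of each other group, and its changes of 0.87 ± 0.31 (adjusted p = 0.0984) and -0.10 ± 0.31 (adjusted p = 0.837) did not pass.

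Several members without a well-known gene gave some of the larger differences. RDM1P5, a pseudogene listed on the array as LOC100131347, was at 0.04 and 0.26 in Control, 1.08 and 1.04 in BT474-Var1, and 0.08 and 0.02 in BT474-Var4. Only the BT474-Var1 arrays stood apart, with a rise of 0.91 ± 0.09 (1.88-fold, adjusted p = 0.00534) and a difference between the lines of -1.01 ± 0.09 (adjusted p = 0.00305). As a pseudogene, it may share sequence with its parent gene and is uncertain for that reason. THC2601422, a transcript cluster with no gene name, was at -4.51 and -4.32 in Control, -2.75 and -2.25 in BT474-Var1, and -3.96 and -3.56 in BT474-Var4, the only member to rise 2-fold in BT474-Var1 (1.91 ± 0.23, adjusted p = 0.00717). It was above background on 1 of the 2 Control arrays, and without Control A the rise had an adjusted p of 0.0582. BT474-Var4 was lower than BT474-Var1 for this transcript (-1.26 ± 0.23, adjusted p = 0.0148), a call lost without BT474-Var4 A. With normexp background correction, which adds an offset and draws dim values together, the rise of THC2601422 in BT474-Var1 was 0.37 and so under 2-fold. AY358253 fell in BT474-Var4, from -0.92 and -0.74 to -1.53 and -1.38 (-0.63 ± 0.09, adjusted p = 0.0160), while BT474-Var1 was at -0.87 and -0.80. That fall was lost whichever array of Control or BT474-Var4 was left out.

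The transcript ENST00000577621 was not well above background on either BT474-Var4 array, and its level in BT474-Var1, -3.35 and -2.74, was at least 1.70-fold higher than in BT474-Var4 (adjusted p = 0.0324), a call that stayed in 1 of 6 fits without an array, with adjusted p up to 0.135, and was lost under quantile normalization. The bound sets the BT474-Var1 mean against the higher, on each BT474-Var4 array, of the measured value and the dimmest probe well above background. Further changes were a rise of ENST00000615852 in BT474-Var1 (0.36 ± 0.06, adjusted p = 0.0170), a fall of the unnamed probe A_33_P3401084 in BT474-Var1 (-0.25 ± 0.07, adjusted p = 0.0462) and a fall of DA515661 in BT474-Var4 (-0.47 ± 0.08, adjusted p = 0.0233). Each of these 3 was lost whichever array of Control or of its own line was left out. Between the lines, ENST00000615852 was at -0.34 (adjusted p = 0.0170) and A_33_P3401084 at 0.36 (adjusted p = 0.0158).

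**Figure D4:**
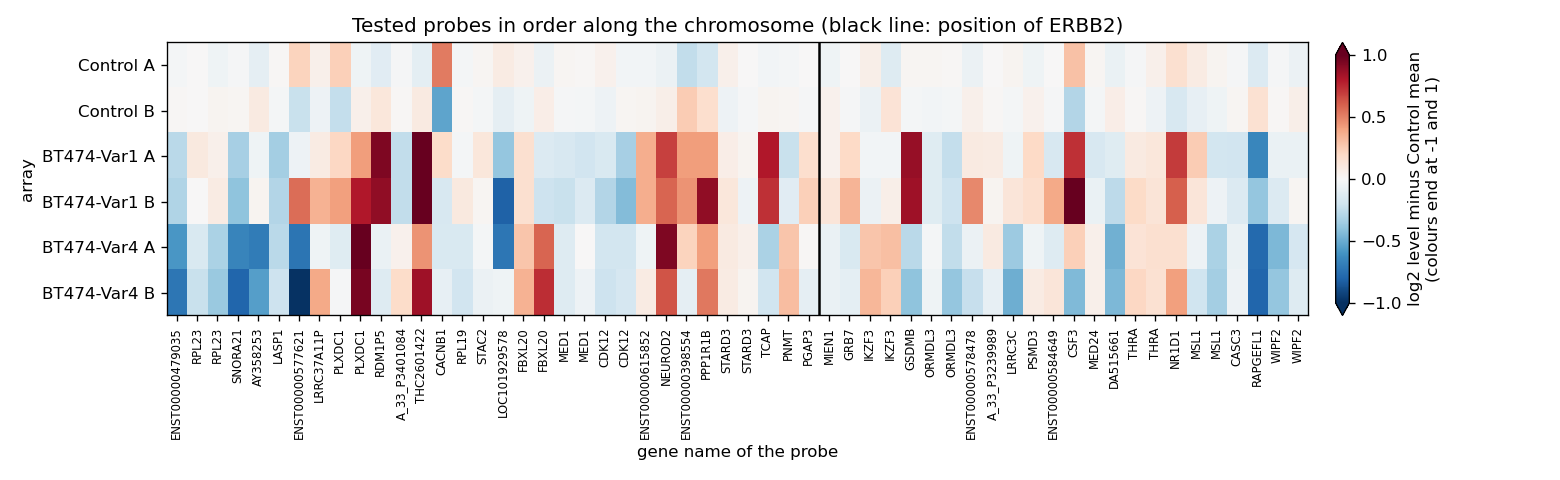
Level on each of the 6 arrays (rows) less the Control mean of the same probe, as color on a log2 scale cut at -1 and 1, for the tested member probes shown in order along the chromosome (columns, 1 gene left out); the black line marks ERBB2. Both colors occur in each line, and the 7 probes at the left end lie below the Control mean on both BT474-Var4 arrays. Over all tested probes the median change in BT474-Var4 was -0.08.

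Along the chromosome, the changes of neighbouring genes were weakly related or opposed. Over the 45 pairs of adjacent tested genes, Pearson's r between the changes of neighbours was -0.01 in BT474-Var1, 0.12 in BT474-Var4 and -0.44 in BT474-Var4 minus BT474-Var1. These are correlations across genes of the same arrays, which are not independent replicates, and they are given as a description. In BT474-Var1, 25 pairs of neighbours had changes of the same sign and 20 of opposite sign, in BT474-Var4 24 and 17, and between the lines 21 and 24, leaving out pairs with a change of 0 at this rounding. The longest run of tested probes on 1 side of the Control mean on both arrays of a line was in BT474-Var4, where the first 7 probes, of ENST00000479035, RPL23, SNORA21, AY358253, LASP1 and ENST00000577621, all lay below it. The last 6, of MSL1, CASC3, RAPGEFL1 and WIPF2, lay below it as well. By the mean change, a looser measure, most probes of the array lay below Control too. In BT474-Var4, 12568 of all 31858 tested probes had a change above 0. How many lay below the Control mean on both arrays was not counted. The first run also holds probes that lie close together, those of ENST00000479035, RPL23 and SNORA21 between 37004149 and 37009177. Whether the runs are longer than elsewhere on the array was not tested. In BT474-Var1 the longest runs held 5 probes, from FBXL20 to CDK12 below the Control mean and from ENST00000615852 to STARD3 above it. The median step from a gene to the next was 0.36 in BT474-Var1 and 0.41 in BT474-Var4. By segment, the 28 tested probes before the core had median changes of 0.05 in BT474-Var1 and -0.08 in BT474-Var4, the 7 of the core 0.09 and -0.03, and the 22 after it 0.02 and -0.08.

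Calls in the 2 lines overlapped in part. Of the 57 tested probes, 7 passed in both lines against the shared Control arrays, 9 in BT474-Var1 alone, 11 in BT474-Var4 alone and 30 in neither, or 12.3%, 15.8%, 19.3% and 52.6%. Over all tested probes the shares were 12.8%, 21.6%, 11.4% and 54.2%. Of the 7, PLXDC1 and NEUROD2 rose in both, LASP1, RAPGEFL1, SNORA21 and ENST00000479035 fell in both, and GSDMB rose in BT474-Var1 and fell in BT474-Var4. Passing in 1 line alone does not show that the lines differ.

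For the 2 named genes that moved the same way in both lines and have an entry in the RefSeq promoter table, the 300 bases around the start are shown as the table gives them (GRCh38.p14, whose coordinates differ from the hg19 positions of the probes). Capitals mark ACGTG or GCGTG on either strand, the 2 spellings of the core of the hypoxia response element; ACGTG also lies within the E-box CACGTG.
LASP1, chr17:38869808-38870107, plus strand: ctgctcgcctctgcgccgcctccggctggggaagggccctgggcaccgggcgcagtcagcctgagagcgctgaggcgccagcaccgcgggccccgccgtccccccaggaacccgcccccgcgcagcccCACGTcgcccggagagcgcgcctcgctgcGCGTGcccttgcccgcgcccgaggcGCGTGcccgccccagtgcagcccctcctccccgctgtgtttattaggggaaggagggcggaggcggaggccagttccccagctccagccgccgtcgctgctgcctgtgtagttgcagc
NEUROD2, chr17:39607871-39608170, minus strand: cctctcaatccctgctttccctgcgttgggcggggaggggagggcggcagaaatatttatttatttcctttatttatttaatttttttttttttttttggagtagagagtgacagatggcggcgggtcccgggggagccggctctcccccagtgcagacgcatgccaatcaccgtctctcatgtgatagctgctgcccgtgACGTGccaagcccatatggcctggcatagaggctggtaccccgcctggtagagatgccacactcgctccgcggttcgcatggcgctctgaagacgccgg

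Promoters of 21 member genes were in the table. ACGTG was found in 8 of the 21, or 38.1%, against 21.4% of all 35116 promoters, and GCGTG in 7, or 33.3%, against 36.5%. The E-box CACGTG was in 3, those of RPL19, MIEN1 and GSDMA, or 14.3% against 7.26%. The nuclear receptor half-site AGGTCA was in 2, those of MIEN1 and WIPF2, or 9.52% against 13.8%. These are matches of letters in short windows, searched on both strands.

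The 8 gene names without a tested probe were FBXO47, ZPBP2, GSDMA, ENST00000583161, ENST00000582518, ENST00000582263, ENST00000485835 and the unnamed probe A_21_P0000467. One BT474-Var1 array read ENST00000582518 at -1.46, and the other read it at -4.20, with the remaining arrays between -5.58 and -4.89. The named members not described above, LRRC37A11P and LOC101929578 among them, passed no test in any comparison.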

How the data were processed

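The 6 BT474 samples were read in the Cy3 channel of one-color Agilent arrays. Per the file headers, Feature Extraction 11.5.1.1 gave the intensity of each spot, with background subtracted by the authors. The deposited table holds log2 values that the authors shifted to the 75th percentile of each array in GeneSpring, and it matched the arrays' own values.

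The log2 intensity less the array's 75th percentile over non-control probes was used. Outlier spots were dropped and spots of a probe averaged. The test took the 31858 probes that exceeded background clearly on both arrays of some group. Group means over all 6 arrays were fitted in limma 3.58.1 (R 4.3.3), with Benjamini-Hochberg adjustment over all tested probes and a threshold of 0.05; the script was tested on simulated data. A gene was taken by its tested probe with the highest mean. The genes named were those next to ERBB2, those changed 2-fold, and a fixed list of neighbours, with the other changed members. The members and lists were chosen with earlier results of these data known. The number of arrays limits the precision. Alternatives were background correction, normalization, filters, the deposited table, a replicate block, other variance models and leaving out each array. 1 member gene is counted but not reported by name here.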

Additional observations from a re-analysis of the deposited data

How the results depend on the processing

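The counts of changed member probes moved with the filter, the background correction, the variance model and single arrays, and so did the share of all tested probes. Over all 31858 tested probes, 12781 had an unadjusted p under 0.05 in limma in BT474-Var4 with all arrays and the filter. Against Control in BT474-Var1, 16 passed; normexp gave 29 (46% of all probes), trended and robust variances 25 (43.9%) and no filter on dim probes 5 (4.59%), and leaving out an array gave 3 to 12 (6.43% to 28.6%). In BT474-Var4, 18 passed; the replicate block gave 10 (15.4%), an unmoderated analysis of variance 8 (16.3%) and no filter 0 (1.24%), with 23 of 67 at an unadjusted p under 0.05 in limma, and leaving out an array gave 0 to 12 (1.9% to 15.1%), with 21 of 58 at an unadjusted p under 0.05 beside the 0. Between the lines 19 passed; normexp gave 36 (57.6%) and no filter 5 (8.78%), and leaving out an array gave 9 to 16 (23.5% to 31.6%). The median in BT474-Var1 ranged from 0.04 to 0.09 without an array, that in BT474-Var4 turned from -0.06 to 0.04 under quantile normalization, and that between the lines ran from -0.18 to -0.03. The BT474-Var4 rise of PLXDC1 was -0.06 on its other tested probe, and the RPL23 difference between the lines was 0.02 under quantile normalization. The cause was not tested. The letters A and B did not pair the arrays, with correlations of their deviations of 0.0451, -0.0123 and -0.0153; with the replicate block the counts were 11, 10 and 17, and 29 of 45 gene changes stayed. With the deposited table all 45 stayed, with normexp 43, where NEUROD2, NR1D1, PLXDC1 and THC2601422 changed less, with quantile normalization 35, with no filter 7, and with a lone array in a group, assumed to vary like the others, 13 to 24.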
